A study of Rattus norvegicus with 15 samples.

Results

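The BCL2 family sets the threshold at which a cell commits to mitochondrial apoptosis. Its transcripts were followed here across rat retinas after cell transplantation and sodium iodate injury. The members were chosen by gene symbol: *Bcl2* and *Bcl2l1* (BCL-XL), which keep cells alive, *Bax* and *Bak1*, which open the outer mitochondrial membrane, and the BH3-only genes *Bid*, *Bad*, *Bcl2l11* (BIM) and *Pmaip1* (NOXA). Of 10 genes listed, 8 had a row under their symbol among 20375 genes, and all 8 were among the 15424 genes expressed highly enough to be tested. The other listed genes, *Mcl1* and *Bbc3* (PUMA), had no row under their symbol and were not analysed here.

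In healthy cells the pro-survival proteins hold BAX and BAK in check. BH3-only proteins are made or activated under stress, bind the pro-survival proteins or the effectors themselves, and so release BAX and BAK to form pores through which cytochrome c leaves the mitochondrion. Much of this control acts on the proteins, through cleavage of BID, phosphorylation of BAD and degradation of NOXA, so that transcript levels describe only one layer of it. In the retina the family is known for its part in the loss of photoreceptors and ganglion cells.

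All retinas came from wild-type Sprague-Dawley rats labelled postnatal week 12 and day 31 after transplantation, with 3 libraries in each of 5 groups. The NT group was healthy and received no sodium iodate, an oxidant that injures the retinal pigment epithelium and, after it, the photoreceptors. The sham group received sodium iodate at 40 mg/kg and, per the study's methods, an intravitreal injection of the vehicle. The MSC group received the same sodium iodate dose and an intravitreal graft of human Wharton's jelly mesenchymal stem cells. The MSCEPO group received the same sodium iodate dose and such cells carrying a lentivirus for human erythropoietin, a hormone with pro-survival signalling. The DPSC group received sodium iodate at 40 mg/kg and cells that the labels call DPSC. The study's methods place the vehicle, MSC and MSCEPO injections before the sodium iodate, so these grafts went into eyes not yet injured by it. Rats with xenografts were also given dexamethasone before surgery and cyclosporin after it, so cells and immunosuppression cannot be told apart in any graft group, and sodium iodate and the injection cannot be told apart in sham. The labels do not say whether the 3 libraries of a group came from separate animals, and the p-values measure only the spread between these libraries.

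Values are the deposited regularized log (rlog) levels, a log2 scale on which each gene is shrunken toward its own mean. They are not corrected for transcript length, so levels were compared between libraries and not between genes. A difference of 1 is a doubling on this scale, where shrinkage can make differences smaller than those of unshrunken values. Library depth is unknown from these values. The median rlog level of the tested genes was 8.63 to 8.82 across the 15 libraries, and no 2 libraries held identical values (0 pairs). The label retina matched the markers: the 10 rod genes had NT mean rlog levels of 11.92 to 18.67. Lens genes stood highest in DPSC 1, where their mean level was 5.34 above the NT mean on the log2 scale. It was 4.57 above in DPSC 3 and 3.59 above in MSCEPO 3. A test was called when limma's p-value, adjusted by Benjamini and Hochberg over all 15424 genes, was under 0.05. In bulk retina, fewer cells of a type and less RNA per cell cannot be told apart.

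Across the 4 comparisons with NT, the family members lay above the healthy retina in 31 of 32 member comparisons. Of all tested genes, 51.2% in sham, 50.3% in MSC, 49.5% in MSCEPO and 50.6% in DPSC lay above NT. Only 1 of the 32 was called by limma, *Bak1* in MSC against NT. In the same order of groups, 0.888%, 17.4%, 11.6% and 2.85% of all tested genes were called. Over all 8 comparisons 1 of 64 was called, with at most 0.0259% of all genes called in each of the other 4 comparisons. The count of 31 was 30 after median centring and 29 after quantile normalization. The comparisons share the same 3 NT libraries, so they are not separate evidence of a direction. Between them, MSC 1 and MSCEPO 3 held the highest level of every member, and also the lowest *Bad* (MSC 1) and the lowest *Bcl2* (MSCEPO 3). Without both, a step chosen after seeing the data, the count was 32 of 32. The comparison gained was *Bad* in MSC, whose lowest library was left out.

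**Figure D1:**
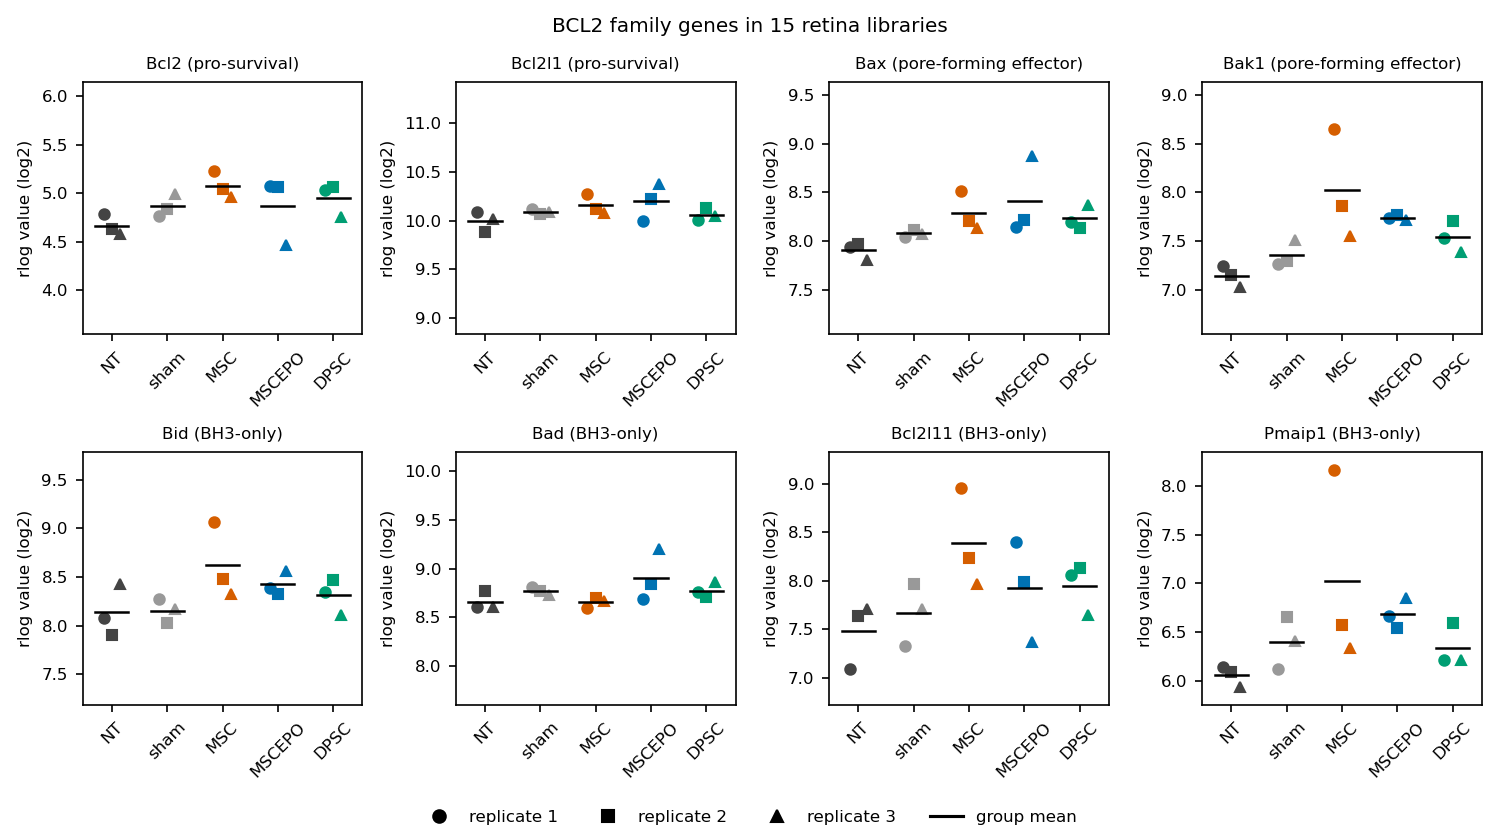
rlog level (log2) of each of the 8 BCL2 family members in each of 15 libraries, by group, with a panel per gene. Points are libraries; MSC 1 is the highest of all 15 in 5 members and MSCEPO 3 in the other 3.

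Of the effectors, *Bak1* encodes BAK, which sits in the outer mitochondrial membrane, and it carried the one called change in the family. Its rlog level was 7.24, 7.15 and 7.02 in NT and 7.26, 7.29 and 7.51 in sham. It was 8.65, 7.86 and 7.55 in MSC, 7.73, 7.77 and 7.71 in MSCEPO, and 7.53, 7.70 and 7.38 in DPSC. Sham and the 3 groups with grafts all lay above every NT library, and MSC and MSCEPO lay above every sham library as well. Taken singly, these groups did not overlap NT in 31.4% to 44.1% of all tested genes. MSC did not overlap sham in 24.5% of them and MSCEPO in 14.3%. *Bak1* rose in MSC against NT by 0.88 (SE 0.21, 95% interval 0.42 to 1.34), a 1.84-fold difference (limma, adjusted p = 0.0146, n = 3 and 3). Without MSC 1, the library with the highest *Bak1*, the difference was 0.56 (adjusted p = 0.0207), and without NT 3 it was 0.82 (adjusted p = 0.0599), which ended the call. Adjusted p ranged from 0.00306 to 0.0738 over the 16 alternatives. With all libraries the rlog difference stayed under 1, the log2 threshold that the study set for DESeq2 fold changes. In this comparison 0 of 8 members and 6.7% of all tested genes were called with an rlog difference over that threshold. Differences of rlog values are shrunken, so the study's own rule was not applied to *Bak1* here. Without MSC 3 the *Bak1* difference was 1.12, over the threshold, and it was called.

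The promoters of *Bak1*, *Bcl2l11* and *Bid*, 3 members that stood above NT or sham in MSC, are shown as examples with the GC box that Sp-family factors bind. These are the 250 bases upstream of the annotated start in RefSeq, build GRCr8, which is not the build used for quantification, and each is written 5′ to 3′ on the gene's strand with GGGCGG in capitals. The *Bak1* window is chr20:5110975-5111224 on the minus strand, that of *Bcl2l11* is chr3:135819792-135820041 on the plus strand, and that of *Bid* is chr4:155808320-155808569 on the minus strand.
Bak1: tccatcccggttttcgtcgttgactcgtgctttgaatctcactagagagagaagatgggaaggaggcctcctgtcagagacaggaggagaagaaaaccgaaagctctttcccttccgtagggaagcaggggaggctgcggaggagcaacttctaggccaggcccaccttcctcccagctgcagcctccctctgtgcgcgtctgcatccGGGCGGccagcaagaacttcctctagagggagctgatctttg
Bcl2l11: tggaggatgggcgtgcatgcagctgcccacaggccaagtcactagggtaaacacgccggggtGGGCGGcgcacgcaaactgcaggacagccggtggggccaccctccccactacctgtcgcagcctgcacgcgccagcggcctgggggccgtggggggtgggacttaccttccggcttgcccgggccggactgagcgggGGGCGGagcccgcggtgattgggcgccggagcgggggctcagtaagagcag
Bid: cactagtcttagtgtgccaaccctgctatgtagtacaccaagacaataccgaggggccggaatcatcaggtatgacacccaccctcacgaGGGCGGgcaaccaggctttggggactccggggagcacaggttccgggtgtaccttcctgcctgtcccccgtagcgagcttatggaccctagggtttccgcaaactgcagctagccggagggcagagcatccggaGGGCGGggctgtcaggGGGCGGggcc
GGGCGG was searched on both strands. It was found in 30.5% of 33465 promoters, and of the 7 members with an entry in *Bak1*, *Bcl2l11*, *Bid* and *Pmaip1*. The GC content was 57.6% for *Bak1*, 72% for *Bcl2l11* and 62.8% for *Bid*, beside a median of 51.2% over all promoters. Choosing promoters by a motif of G and C favours a high value. It was 64.8% for *Pmaip1*, 52.4% for *Bad*, 33.6% for *Bcl2* and 41.2% to 60% over the entries of *Bcl2l1*. *Bax* had no entry. Such a match is a description of the sequence, and no binding was measured.

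*Bax* encodes the effector that moves from the cytosol to mitochondria. Its rlog level was 7.94, 7.97 and 7.80 in NT, 8.04, 8.11 and 8.08 in sham, 8.52, 8.21 and 8.14 in MSC, 8.14, 8.22 and 8.87 in MSCEPO, and 8.19, 8.14 and 8.37 in DPSC. All 12 libraries of the injured groups lay above all 3 NT libraries, and all graft libraries lay above all sham libraries. Taken singly, the groups did not overlap NT in 31.4% to 44.1% of all tested genes, nor sham in 9.82% to 24.5%. The difference was largest in MSCEPO against NT at 0.51 (SE 0.17, 1.42-fold) and did not pass (limma, adjusted p = 0.0752). Without MSCEPO 3 it was 0.27 (adjusted p = 0.127), and without MSCEPO 1 it was 0.64 and passed (adjusted p = 0.0421). *Bax* in MSC was 0.38 above NT (adjusted p = 0.151), in DPSC 0.33 (adjusted p = 0.361) and in sham 0.17 (adjusted p = 0.791).

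*Bcl2*, the pro-survival gene that names the family, had low rlog levels of 4.78, 4.63 and 4.58 in NT and 4.76, 4.83 and 4.99 in sham. It was at 5.22, 5.04 and 4.96 in MSC, 5.08, 5.06 and 4.47 in MSCEPO, and 5.03, 5.06 and 4.76 in DPSC. MSCEPO 3 held the lowest *Bcl2* of all 15 libraries while the other MSCEPO libraries lay above every NT library. In MSC against NT the difference was 0.41 (SE 0.16, 1.33-fold) and did not pass (limma, adjusted p = 0.0926). It was 0.04 under quantile normalization, and it passed with only the 2 groups compared (adjusted p = 0.0488). In MSCEPO against NT it was 0.20 (adjusted p = 0.429), and 0.40 without MSCEPO 3 (adjusted p = 0.0392).

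*Bcl2l1* encodes BCL-XL, the pro-survival protein known for its role in neurons, and its largest difference in any comparison was the smallest of the 8. Its level was 9.88 to 10.09 in NT, 10.07 to 10.12 in sham, 10.08 to 10.27 in MSC, 10.00 to 10.37 in MSCEPO and 10.01 to 10.13 in DPSC. The ranges of sham, MSC, MSCEPO and DPSC all overlapped that of NT. That difference was 0.20 in MSCEPO against NT (95% interval -0.01 to 0.42; limma, adjusted p = 0.21). *Bcl2l1* was also the most precisely measured, with 95% intervals of ±0.22 on the log2 scale, a 1.16-fold change, whereas those of *Pmaip1* were ±0.77, a 1.70-fold change.

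Among the BH3-only genes, *Bcl2l11* encodes BIM, which binds all pro-survival proteins and can activate BAX and BAK directly. Its rlog level was 7.09, 7.64 and 7.71 in NT, 7.33, 7.96 and 7.71 in sham, 8.95, 8.24 and 7.96 in MSC, 8.40, 7.99 and 7.38 in MSCEPO, and 8.06, 8.13 and 7.65 in DPSC. MSC lay above NT without overlap, and the other injured groups overlapped it. The MSC difference from NT was 0.90 (SE 0.30, 1.87-fold), close to that of *Bak1* but with a wider error, and it did not pass (limma, adjusted p = 0.0569). It was 0.62 without MSC 1. It was 1.12 without MSC 3, where it passed (adjusted p = 0.0325). MSCEPO was 0.44 and DPSC 0.47 above NT (adjusted p = 0.369 and 0.484). Single libraries moved both: MSCEPO was 0.20 above NT without MSCEPO 1, 0.25 without NT 1 and 0.72 without MSCEPO 3, and DPSC 0.27 without NT 1.

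*Pmaip1* encodes NOXA, a p53 target that binds MCL1, and it had the largest difference and the widest error. Its rlog level was 6.14, 6.09 and 5.94 in NT, 6.12, 6.65 and 6.41 in sham, 8.16, 6.58 and 6.34 in MSC, 6.67, 6.54 and 6.85 in MSCEPO, and 6.21, 6.59 and 6.21 in DPSC. MSC 1 stood apart from the other 14 libraries, of which none exceeded 6.85. The MSC difference from NT was 0.97 (SE 0.35, 1.96-fold; limma, adjusted p = 0.0798), without MSC 1 it was 0.40, and without MSC 3 it was 1.31 and passed (adjusted p = 0.0211). Against sham it was 0.63 (adjusted p = 0.485), and 0.06 without MSC 1. MSCEPO, whose libraries lay close together, was 0.63 above NT (adjusted p = 0.277).

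*Bid* encodes the protein that links death receptors to mitochondria after cleavage by caspase-8. It was at 8.08, 7.90 and 8.43 in NT, 8.27, 8.03 and 8.17 in sham, 9.07, 8.48 and 8.33 in MSC, 8.39, 8.32 and 8.56 in MSCEPO, and 8.35, 8.47 and 8.11 in DPSC. NT itself spread over the range of sham and reached into those of MSC and MSCEPO, whereas MSC and MSCEPO lay above every sham library. The MSC difference was 0.49 against NT (limma, adjusted p = 0.0969) and 0.47 against sham (adjusted p = 0.295). Against NT it was 0.27 without MSC 1, and 0.64 without MSC 3, where it passed (adjusted p = 0.0441).

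*Bad*, whose product is kept inactive by survival-factor signalling through Akt, was the member that did not lie above NT in MSC. Its level was 8.60 to 8.77 in NT, 8.73 to 8.81 in sham, 8.60 to 8.70 in MSC, 8.68 to 9.20 in MSCEPO and 8.70 to 8.86 in DPSC. The means of MSC and NT were both 8.66 (95% interval of the difference -0.26 to 0.25), and MSC lay below every sham library. The value of 9.20 belonged to MSCEPO 3.

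Sham against NT asked what sodium iodate with vehicle did to the family a month on. All 8 members had a higher mean in sham, by 0.02 (*Bid*) to 0.34 (*Pmaip1*), and none was called (0 of 8, limma; 0.888% of all tested genes were called). The direction of *Bid* turned under median centring and quantile normalization and without NT 1, NT 2 or sham 1 (-0.01, -0.10 and -0.04), and that of *Bcl2l11* turned without NT 1 (-0.006). At an unadjusted p under 0.05 the count was 0 of 8, beside 12.4% of all genes. Sham and NT did not overlap for *Bax* and *Bak1*, 2 of 8 members, beside 31.9% of all genes. The median difference of the members was 0.18, and 0.00 over all genes; the median size without sign was 0.18 and 0.13.

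**Figure D2:**
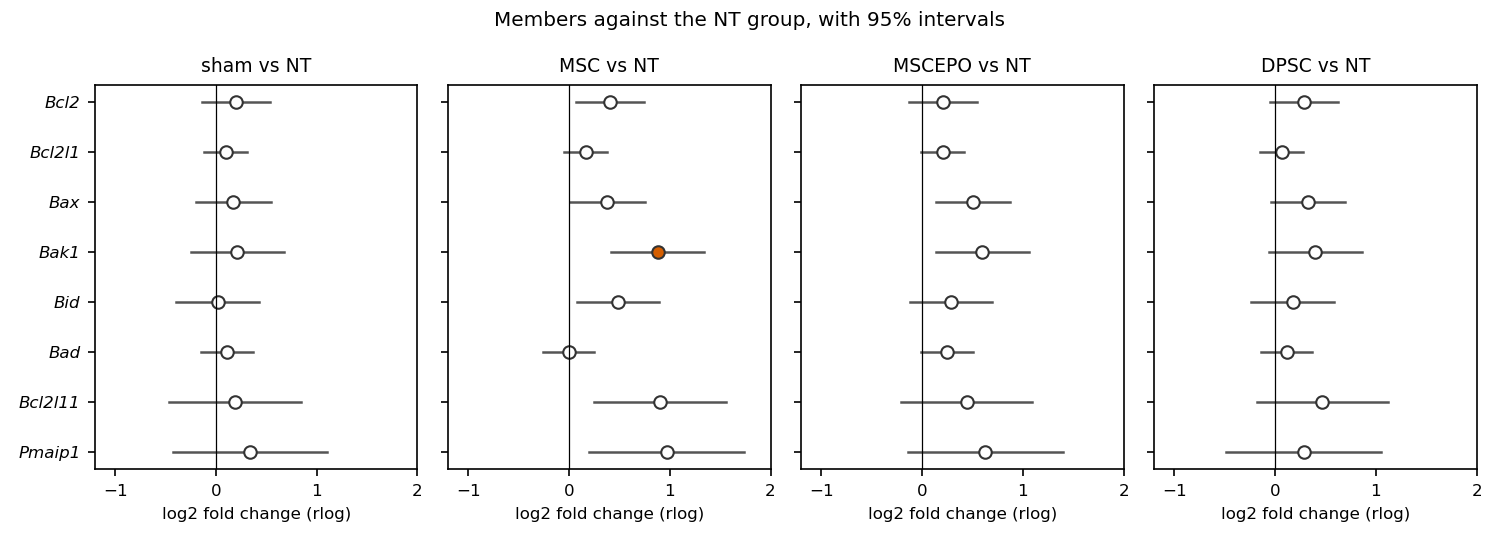
log2 difference from NT (x axis, rlog) of each member (y axis) in sham, MSC, MSCEPO and DPSC, with 95% intervals from limma (n = 3 per group). The filled point is the called one, *Bak1* in MSC at 0.88; the other 31 points are open.

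The graft groups against NT combine sodium iodate, grafted cells and immunosuppression. In MSC, 7 of 8 members were above NT and 1 rose by the test, *Bak1*, while 17.4% of all tested genes were called in either direction and 11% as higher. The share of members called, 1 of 8, was near that background, and the count was 4 without MSC 3 (*Bak1*, *Bcl2l11*, *Bid* and *Pmaip1*) and 0 without NT 3. Over all genes, 2677 were called as reported, 2721 without MSC 3 and 1350 without NT 3. The count at an unadjusted p under 0.05 was 6 of 8 beside 30.7% of all genes, and 5 of 8 members did not overlap NT beside 44.1%. The median member difference was 0.45, with a median size of 0.21 over all genes. In MSCEPO all 8 were above NT and 0 were called (limma; 11.6% of all genes). The unadjusted count was 2 of 8, *Bax* and *Bak1*, beside 27%, and *Bax*, *Bak1* and *Pmaip1* did not overlap NT beside 31.4%. The median was 0.37. *Bcl2* in MSCEPO turned below NT under quantile normalization (-0.06). In DPSC all 8 were above NT with a median of 0.28 and 0 were called (limma; 2.85% of all genes). The unadjusted count was 0 of 8 beside 16.8%, and *Bax*, *Bak1* and *Pmaip1* again did not overlap NT beside 31.7%. Leaving out MSC 1 and MSCEPO 3 together, an alternative chosen after seeing the data, raised the MSCEPO count from 0 to 5 (*Bak1*, *Bax*, *Bcl2*, *Bcl2l11* and *Pmaip1*) and the DPSC count from 0 to 2 (*Bak1* and *Bax*). The same step raised the calls over all 15424 genes from 1795 to 4235 in MSCEPO and from 439 to 1858 in DPSC.

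The comparisons with sham, which set grafted eyes given sodium iodate against eyes given it with vehicle, called no member. The study, with DESeq2, reported many differentially expressed genes in MSC and in MSCEPO against sham. The limma test of shrunken rlog values used here called almost none. A count of 0 therefore does not show that the levels of the members were unchanged. In MSC against sham *Bcl2l11* was 0.72, *Bak1* 0.67 and *Bid* 0.47 higher, with adjusted p = 0.322, 0.182 and 0.295 (limma). The count called was 0 of 8 beside 0% of all genes, and at an unadjusted p under 0.05 it was 3 of 8 beside 13.3%. *Bax*, *Bak1*, *Bid* and, in the lower direction, *Bad* did not overlap sham, 4 of 8 beside 24.5%. Without MSC 1 the differences were 0.43 for *Bcl2l11*, 0.35 for *Bak1* and 0.25 for *Bid*. In MSCEPO against sham the largest were *Bak1* at 0.38 and *Bax* at 0.33, with 0 of 8 called beside 0.0259%. The unadjusted count there was 0 beside 8.31%, and *Bax*, *Bak1* and *Bid* did not overlap sham, 3 of 8 beside 14.3%. In DPSC against sham the differences ran from -0.05 (*Pmaip1*) to 0.28 (*Bcl2l11*), with 0 of 8 called beside 0.0195% and an unadjusted count of 0 beside 2.37%. *Bax* was the 1 member without overlap, beside 9.82%.

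**Figure D3:**
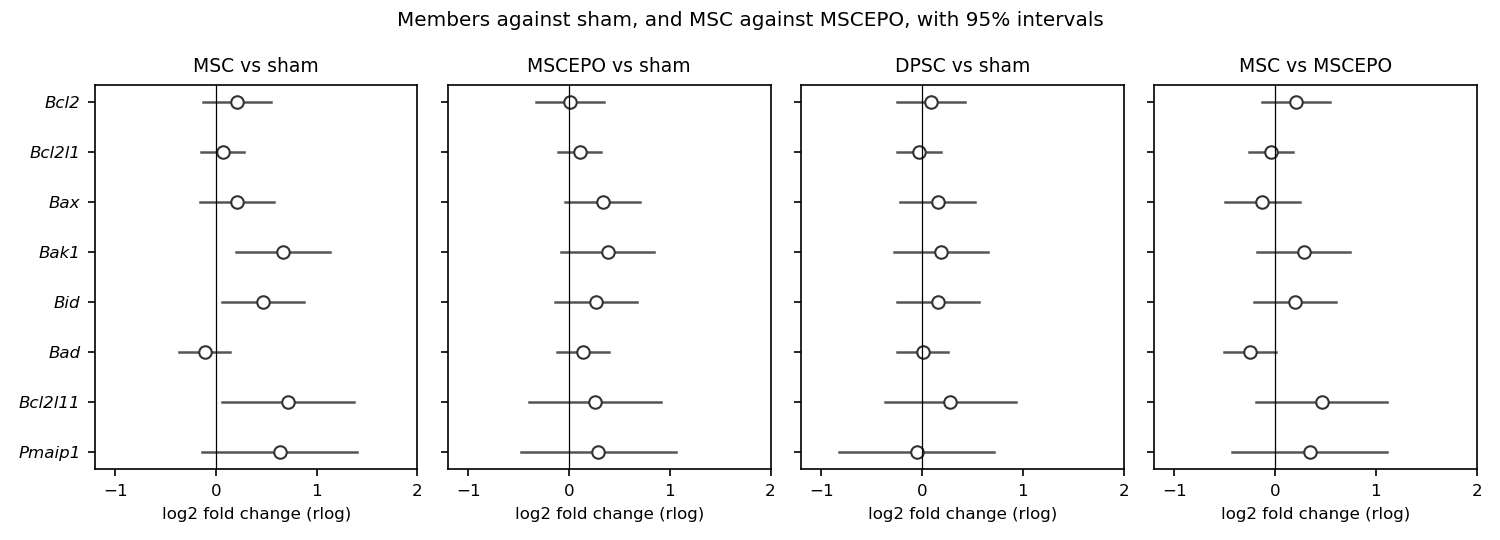
log2 difference (x axis, rlog) of each member (y axis) in MSC, MSCEPO and DPSC against sham and in MSC against MSCEPO, with 95% intervals from limma (n = 3 per group). All points are open, that is, 0 were called; in MSC against sham the intervals of *Bak1*, *Bid* and *Bcl2l11* lie above 0.

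MSC against MSCEPO addressed whether cells that carry the erythropoietin gene left another state of the family than cells that do not. None of the 8 was called (limma, 0 beside 0% of all genes; 0 at an unadjusted p under 0.05 beside 3.79%) and none was free of overlap (0 beside 4.09%). The nearest was *Bad*, 0.25 lower in MSC (95% interval -0.51 to 0.00; adjusted p = 0.754), and -0.11 without MSCEPO 3. The widest intervals allowed a difference of up to 1.11 for *Bcl2l11* and *Pmaip1*, so similar levels were not shown. MSC was higher in 5 of 8 members, and in 1 of 8 without MSC 1 and MSCEPO 3.

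The balance between an effector and a pro-survival gene in the same library, given as the difference of their rlog levels relative to the NT mean, is a description without a test. For *Bak1* minus *Bcl2l1* it was 0.12 ± 0.15 (SD, n = 3) in sham, 0.72 ± 0.47 in MSC, 0.39 ± 0.20 in MSCEPO and 0.34 ± 0.13 in DPSC, beside an SD of 0.13 in NT. The MSC values spread from 0.33 to 1.23. For *Bax* minus *Bcl2l1* it was 0.08 ± 0.06 in sham, 0.22 ± 0.10 in MSC, 0.30 ± 0.26 in MSCEPO and 0.26 ± 0.16 in DPSC. The SD of that pair in NT was 0.16. For *Bax* minus *Bcl2* it was -0.02 ± 0.11 in sham, -0.03 ± 0.07 in MSC and 0.04 ± 0.29 in DPSC. It was 0.30 ± 0.75 in MSCEPO, where MSCEPO 3 was at 1.16 and the lowest library at -0.17.

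Markers of other cell types differed between the same groups. The 18 leukocyte markers, all of them tested, had a mean level relative to NT of 0.61 to 1.15 in sham, 4.21, 2.49 and 1.77 in MSC 1, 2 and 3, 2.33, 1.74 and 1.40 in MSCEPO, and 0.76, 2.04 and 0.77 in DPSC. The number called higher than NT was 18 in MSC, 10 in MSCEPO, 2 in DPSC and 0 in sham. MSC 1 was the library highest both in these markers and in *Bak1*, *Bcl2*, *Bid*, *Bcl2l11* and *Pmaip1*. The mean level of the 10 rod markers relative to NT was -0.78 in sham, -1.39 in MSC, -1.56 in MSCEPO and -1.08 in DPSC. Of these markers 10, 10 and 8 were called lower in MSC, MSCEPO and DPSC and 1 in sham. The lowest rod level of a library was -1.74, in MSCEPO 2. Of 6 Müller glia genes, 4 were called higher than NT and 1 lower in MSC, and 3, 2 and 1 were called higher in MSCEPO, DPSC and sham. Of 6 retinal pigment epithelium genes, 3 were called lower in MSC, with a median difference of -1.69, and in MSCEPO 1 was called lower and 1 higher. Their median difference was -1.18 in sham, -1.25 in MSCEPO and -0.98 in DPSC, with 0 called in sham and DPSC. No lens gene was called against NT, and 1 of 8 inner neuron genes was called lower in MSC. The part of these cells in the member differences was not tested.

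**Figure D4:**
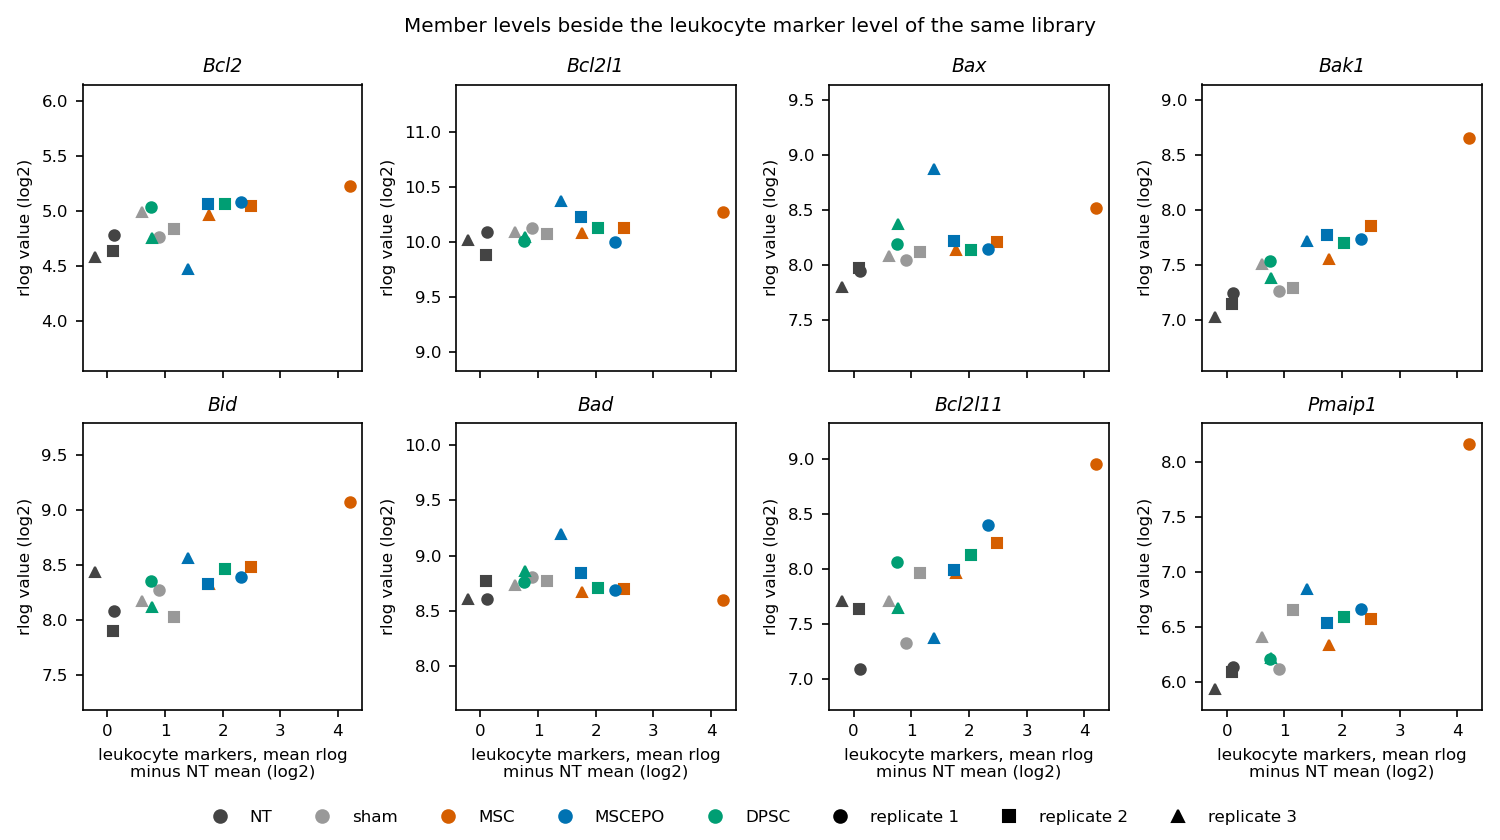
rlog level (log2) of each member against the mean level of 18 leukocyte markers minus the NT mean (log2), with a point per library and colour by group. MSC 1, at 4.21 on the x axis, is the rightmost point and the highest one for *Bak1*, *Bcl2*, *Bid*, *Bcl2l11* and *Pmaip1*.

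Of 13 other BCL2 family genes listed, 10 were tested. In MSC against NT 1 rose and 2 fell, and in MSCEPO 2 fell, beside 17.4% and 11.6% of all tested genes called. *Bcl2a1*, a pro-survival member known from leukocytes, had an rlog level of 4.97, 4.88 and 4.79 in NT, 5.27, 5.53 and 5.16 in sham and 9.09, 7.23 and 6.30 in MSC. It rose by 2.66 in MSC (limma, adjusted p = 0.00609), and by 1.89 without MSC 1, the library with the highest leukocyte marker level. *Bcl2l2* (BCL-W), a pro-survival member known from neurons, fell by 0.56 in MSC and by 0.51 in MSCEPO (adjusted p = 0.00691 and 0.0138). Its mean was 12.39 in NT, 12.13 in sham and 11.98 in DPSC. The MSCEPO call ended without NT 2 (adjusted p = 0.0511) or MSCEPO 2 (adjusted p = 0.052), under quantile normalization (adjusted p = 0.0694) and with only the 2 groups compared (adjusted p = 0.0565). *Bnip3*, which marks mitochondria for removal under hypoxia, fell by 0.70 in MSC (adjusted p = 0.0132, and 0.0506 without NT 2). *Bmf*, a BH3-only gene, fell by 0.80 in MSCEPO (adjusted p = 0.0278), a call that ended without NT 1, NT 2 or NT 3 (adjusted p = 0.0615, 0.0767 and 0.106). The MSCEPO count of 2 was 1 without NT 1, NT 3 or MSCEPO 2 and 0 without NT 2. Over all genes, the calls in these fits fell from 1795 to between 801 and 1113. The median difference of the 10 was -0.15 in MSC and -0.05 in MSCEPO. None was called in sham, DPSC or any other comparison.

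Downstream of the family, 21 caspase, apoptosome and inhibitor-of-apoptosis genes were tested. In MSC against NT 7 were called, 5 higher and 2 lower, beside 17.4% of all tested genes. In MSCEPO 3 were called, beside 11.6% of all tested genes. *Birc3* (cIAP2), an NF-kappaB target that restrains caspase-8, rose by 1.87 in MSC (limma, adjusted p = 0.0117). That call ended without NT 3 (adjusted p = 0.0506) and with only the 2 groups compared (adjusted p = 0.0553). *Cflar*, a caspase-8 decoy, rose by 1.05 in MSC (adjusted p = 0.0164), a call that ended without MSC 1 (adjusted p = 0.0658) or NT 3 (adjusted p = 0.0612). *Aifm1*, a mitochondrial flavoprotein, fell by 0.65 in MSC and by 0.73 in MSCEPO (adjusted p = 0.00666 and 0.00429). Its mean was 10.73 in NT, 10.14 in sham and 10.25 in DPSC, and it was not called in sham or DPSC. *Xiap*, a direct caspase inhibitor, fell by 1.54 in MSCEPO (adjusted p = 0.0147) and by 0.95 without MSCEPO 3, where it was at 9.33. Its mean was 12.05 in NT, 11.26 in sham, 11.10 in MSC and 11.15 in DPSC, and it was not called in sham, MSC or DPSC. The MSCEPO call ended without NT 2 (adjusted p = 0.0514) or NT 3 (adjusted p = 0.0557) and with only the 2 groups compared (adjusted p = 0.115). The median difference of the 21 was 0.12 in MSC and 0.03 in MSCEPO. The MSC count of 7 was 4 without NT 1, NT 2 or MSC 1 and 2 without NT 3, and the MSCEPO count of 3 was 6 without MSCEPO 3 and 1 without NT 3. Over all genes, the MSC calls in these fits fell from 2677 to between 1350 and 1748. The MSCEPO calls over all genes went from 1795 to 2998 without MSCEPO 3 and 801 without NT 3.

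Upstream, 16 p53 and stress genes were tested. In sham 1 and in DPSC 2 were called higher than NT, beside 0.888% and 2.85% of all tested genes. In MSC 2 were called higher and 2 lower, and in MSCEPO 2 higher and 1 lower, beside 17.4% and 11.6%. *Sesn2*, a stress-induced sestrin, rose against NT in all 4 groups, by 0.75 in sham, 0.65 in MSC, 0.80 in MSCEPO and 0.57 in DPSC (limma, adjusted p = 0.0164, 0.00558, 0.00194 and 0.0344). *Phlda3*, a p53 target that restrains Akt, rose by 0.94 in MSC, 1.13 in MSCEPO and 0.72 in DPSC (adjusted p = 0.00365, 0.00134 and 0.0399). *Atf4*, a transcription factor of the integrated stress response, fell by 0.96 in MSC (adjusted p = 0.0124). *Ccng1*, a p53 target, fell by 1.09 in MSC and fell by 1.102 in MSCEPO (adjusted p = 0.0377 and 0.047). In sham the means of these genes lay on the same side of NT without a call. They were 7.21 for *Phlda3* (6.58 in NT), 13.14 for *Atf4* (13.70) and 12.47 for *Ccng1* (13.19). The call of *Sesn2* in sham ended without NT 1, NT 2, NT 3, sham 1 or sham 3 (adjusted p = 0.0568 to 0.105). Both calls in DPSC ended without any 1 of the 6 libraries compared and under quantile normalization. That of *Sesn2* there also ended under median centring, and that of *Phlda3* with no filter and with only the 2 groups compared. The *Ccng1* call in MSC ended without any 1 of its 6 libraries (adjusted p = 0.0589 to 0.109), and in MSCEPO without NT 1, NT 2, NT 3, MSCEPO 1 or MSCEPO 2 (adjusted p = 0.103 to 0.144). The MSCEPO count of 3 was 6 without MSCEPO 3, where the calls over all genes rose from 1795 to 2998. The median difference of the 16 was 0.00 in MSC and -0.25 in MSCEPO. None of the 3 lists had a called gene in a comparison with sham or in MSC against MSCEPO.

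**Figure D5:**
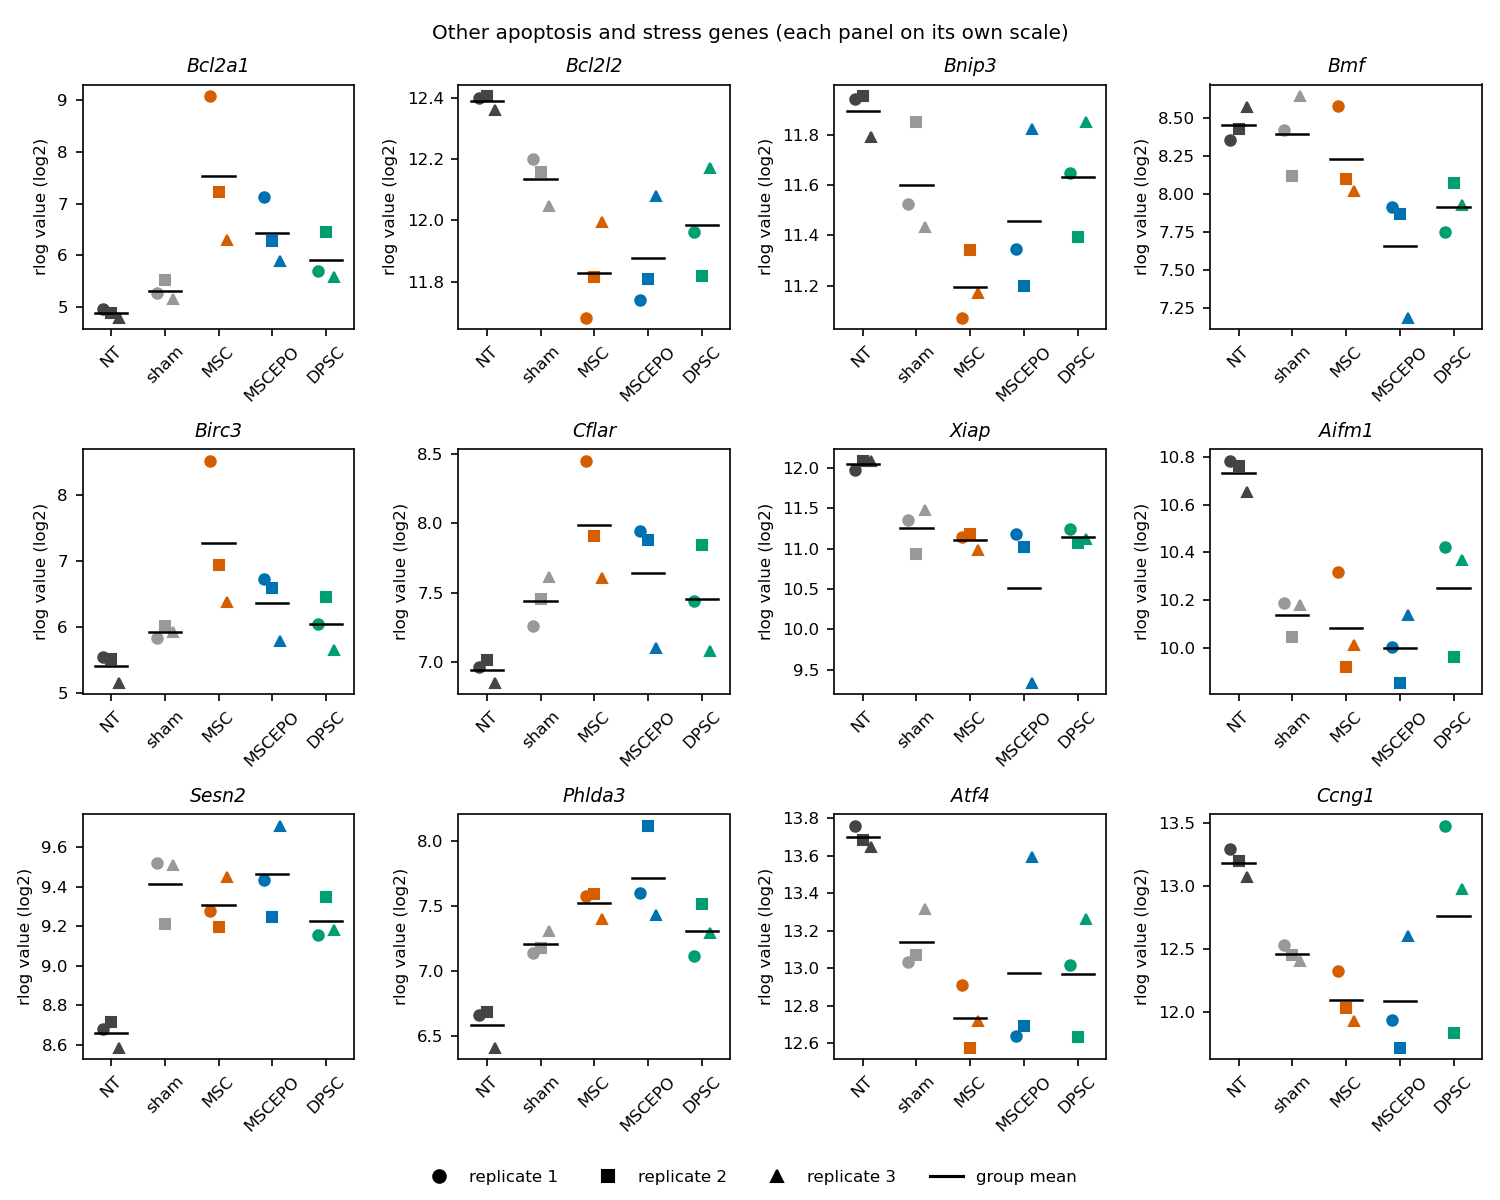
rlog level (log2) of 12 other genes of the pathway in each of 15 libraries, by group, with a panel per gene. MSC 1 is the highest library for *Bcl2a1*, at 9.09, and for *Birc3*, and MSCEPO 3 is the lowest for *Xiap*, at 9.33.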

How the data were processed

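RNA sequencing of whole rat retina gave 15 libraries, 3 in each of 5 groups as labelled. Quantification by the authors used Salmon 1.1.0 with rat Rnor_6.0, and DESeq2 transformed the gene values (version given as 3.2 in the submitters' processing notes). Reads of the human cells are not stated to have been separated. The deposited log2 values are the authors' rlog levels and were used as they are. No counts were used, so depth is unknown and no detection limit is given. The series table holds 15 further per-sample columns, which were not used. They repeat the same values (0 differ), and 88 genes are marked there in a column without a name. Within groups, Pearson's r across tested genes was 0.948 to 0.996.

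The filter kept the 15424 of 20375 genes whose rlog averaged 3.32 (log2 of 10) or more. Of all genes listed, 2591 had no symbol. One fit in R 4.3.3 with limma 3.58.1 held all 15 libraries with group means and a mean-variance trend, and p-values were adjusted by Benjamini-Hochberg per comparison, for 8 comparisons. An exact permutation test of 3 against 3 cannot go below 0.1 and was not used. The pipeline was tested on simulated data. The members and lists were chosen with earlier results of these data known. Named besides all members are at most 4 genes per list and comparison, those with the smallest adjusted p among the called. A gene that this rule selects is not reported here. *Hrk* had no row, *Bcl2l14*, *Bcl2l15* and *Eda2r* fell below the filter, and *Casp6* has 2 rows, 1 of them below it. Alternatives were the study's fold threshold, 2 filters, 2 scalings, no trend, array weights, a replicate block, fits of fewer groups, and each library left out.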

Additional observations from a re-analysis of the deposited data

How the results depend on the processing

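Of 134 alternative counts of called members over 8 comparisons, 122 stayed within 1.5 times the reported count and 12 moved. The reported count was 0 in every comparison but MSC against NT, and a 0 that stayed 0 was tallied as unmoved. Against sham and in MSC against MSCEPO at most 4 of all tested genes were called as reported. The tally compares counts and not which member was called, so it does not measure stability. In MSC against NT the count of 1 became 0 under the study's fold threshold, applied here to rlog differences. It was 0 (without NT 3) to 4 (without MSC 3) with a library left out. In MSC against sham it was 0 to 1 (without MSC 3, where 698 of all genes were called in place of 0). In MSCEPO against NT the count of 0 became 2 with only the 2 groups compared, 8 with array weights, 5 without MSC 1 and MSCEPO 3 (chosen after seeing the data), and 0 to 1 with a library left out (1 without MSCEPO 1 or MSCEPO 3). In DPSC against NT it became 4 with array weights and 2 without MSC 1 and MSCEPO 3. In MSCEPO against sham it became 2 with array weights. Over all genes, leaving out MSC 1 and MSCEPO 3 called 4235 in MSCEPO and 1858 in DPSC against NT (1795 and 439 as reported). In MSCEPO against NT 996 were called with only the 2 groups compared, 1579 without MSCEPO 1 and 2998 without MSCEPO 3. limma's weight estimation stopped before its convergence tolerance and called 9212, 6375 and 4585 genes in MSCEPO and DPSC against NT and MSCEPO against sham. The causes were not tested. *Bcl2* turned below in MSCEPO against NT under quantile normalization (-0.056), and in MSCEPO against sham (0.01 as reported) it was -0.14 under quantile normalization and -0.04, -0.01, -0.10 and -0.09 without sham 1, sham 2, MSCEPO 1 and MSCEPO 2. It reached 0.21 without MSCEPO 3. The call of *Bak1* in MSC against NT was lost in 2 of 16 alternatives, without NT 3 and with only the 2 groups compared (adjusted p = 0.0738), where *Bcl2* was called in its place. Quantile normalization moved the median of all genes by at most -0.10 (MSC against NT).

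The replicate numbers did not pair the libraries: deviations of same-numbered libraries from their group means correlated at -0.44 to 0.65, and 6 of 15 libraries correlated best with their own number. With the replicate block the member counts were 1 in MSC against NT and 0 in the other 7 comparisons, as reported, and 2726 genes were called in MSC against NT in place of 2677. Among list counts, the block added 1 caspase gene each in sham and DPSC against NT (0 as reported). Over all genes it called 150 in sham and 493 in DPSC against NT (137 and 439 as reported). No fit without the DPSC group gives a DPSC value. Without depth, no limit of detection could be set for the low *Bcl2* values.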
